A study of Mus musculus with 6 samples.

Results

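Osteoclasts are the multinucleated cells that resorb bone, and 9 genes of their differentiation and resorption were examined in tdTomato+ cells sorted from cultures of bone marrow stromal cells (BMSCs). The genes were taken by symbol, and all 9 were found among the 17469 genes of the deposited table. They are the receptors Tnfrsf11a, Oscar and Calcr, the transcription factor Nfatc1, the fusion genes Dcstamp and Ocstamp, the proton pump subunit Atp6v0d2 and the resorption enzymes Acp5 and Ctsk. The control libraries came from 6-month-old Ocn-Cre;Ai9 mice and the TgAPPswe libraries from 6-month-old TgAPPswe;Ocn-Cre;Ai9 mice, with 3 libraries of each genotype. Both genotypes carried a Cre recombinase driven by the osteocalcin promoter and the Ai9 allele, which makes a cell tdTomato+ once Cre has removed a stop cassette. TgAPPswe mice also carried human APP with the Swedish mutation behind a CAG promoter and a stop cassette (LSL) that the same Cre removes. The cells were the attached fraction of femur and tibia marrow, grown, passaged and sorted by flow cytometry. The number of mice behind each library is not given in the sources used here, so p-values measure the spread between these libraries only.

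Osteoclasts form from cells of the monocyte and macrophage lineage. The cytokine M-CSF, acting on its receptor Csf1r, keeps the precursors alive, and RANKL, acting on its receptor RANK, drives them through NF-kB and AP-1 to switch on NFATc1, the master transcription factor of the lineage. NFATc1 then turns on the genes by which precursors fuse, attach to bone, secrete acid through the V-type proton pump and digest the matrix with cathepsin K. Osteoblast-lineage cells are a main source of RANKL and of its soluble decoy receptor, osteoprotegerin.

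The 9 genes did not move as a block. Tnfrsf11a, Acp5 and Ocstamp were higher in TgAPPswe cells, Atp6v0d2 was lower by a fold of 5.22, and Nfatc1 (log2 fold change -0.23) and Ctsk (-0.36) passed as lower by smaller amounts. Dcstamp did not pass the test, and Oscar and Calcr were too scarce to be tested. Counts were compared with edgeR's quasi-likelihood test, and a gene passed when its Benjamini-Hochberg adjusted p over all 12701 genes tested was at or below 0.05. Of the 7 genes tested, 3 passed as higher and 3 as lower, where 64.0% of all genes tested passed, 32.5% as higher and 31.5% as lower. A gene was called when its log2 fold change was also at least 1 in either direction. The called genes were 3 higher and 1 lower, where 18.1% of all genes tested were called, 8.90% as higher and 9.20% as lower. Ocstamp, with 0, 0 and 1 control counts, reached the filter for testing in TgAPPswe libraries only. Its pass, its call and its part in the medians that follow are partly set by that filter and are not support. With a minimum of 10 counts in every library Ocstamp was not tested, and 2 genes were called as higher. The median absolute log2 fold change was 1.31 over the 7 genes and 0.43 over all genes tested. Their median signed log2 fold change was -0.23, and that of all genes tested was -0.02. When counts were scaled by library size only, the median over all genes tested went to -0.23 and that of the 7 genes to -0.44, and the share of calls that were higher went from 49.15% to 32.82%. The direction of each of the 7 genes was the same under that scaling.

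**Figure D1:**
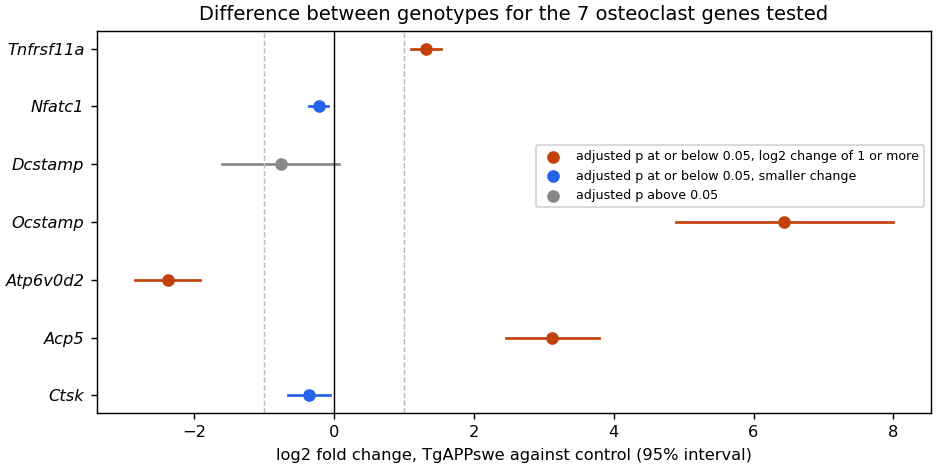
Log2 fold change of TgAPPswe against control (x axis) for the 7 osteoclast genes tested, with points for the edgeR estimate, bars for its 95% interval, and dashed lines at a log2 fold change of 1 in either direction. Ocstamp at 6.44 and Acp5 at 3.12 lie farthest to the right, Atp6v0d2 at -2.38 farthest to the left, and the interval of Dcstamp spans 0.

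The libraries were deep and the genotypes stood apart as a whole. Estimated counts summed to between 19340810 and 22037840 per library, and a level of 3 counts, taken as the smallest detectable, was worth between 0.136 and 0.155 CPM (counts scaled to a common library total), a limit that covers counting error only. The squared difference between a pair of libraries was set against the variance expected from sampling, as a median over genes. This variance ratio was 2.52 to 6.22 within a genotype and 48.6 to 60.5 across genotypes. App, counted on the mouse gene, rose from an FPKM of 279 ± 3.5 (SD, n = 3) to 330.0 ± 4.18 in TgAPPswe cells, a log2 fold change of 0.45 (adjusted p = 7.87e-05). FPKM is the number of fragments mapped to a gene, scaled by the gene's length and by the mapped fragments of the library.

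The labelled cell type was checked against marker genes of the cells that such a culture could hold. Summed FPKM over 15 macrophage markers was between 19277 and 20464 in control libraries and between 15968 and 19767 in TgAPPswe libraries. All 15 were tested, and 6 passed as higher and 7 as lower. Those with the largest changes were Marco (5.48), Mrc1 (-2.38), Cx3cr1 (-2.05) and Aif1 (2.04), all log2 fold changes. Summed FPKM over 15 stromal and osteoblast markers was far lower, between 166.5 and 181.6 in control and between 129 and 202 in TgAPPswe libraries. Bglap, which encodes osteocalcin, had between 2.76 and 10 estimated counts in control and between 0 and 4.38 in TgAPPswe libraries. These counts are of the mouse gene and do not measure the activity of the Cre transgene. Of these 15 markers, 14 were tested, 2 passed as higher and 3 as lower, and Kitl (-1.39) was called. Scaled by library size only, 2 passed as higher and 5 as lower. The other lists were low. Dendritic cell markers summed to an FPKM of 16.6 to 41.5 in control and 8.21 to 18.9 in TgAPPswe libraries, and of the 3 tested, Xcr1 was called as higher (1.88) and the other 2 did not pass, although Itgax passed as lower with library size scaling only (-1.19, adjusted p = 0.0225). Xcr1 rested on 12.2 to 13.1 estimated counts in control and 41.6 to 48.0 in TgAPPswe libraries. Neutrophil markers summed to 12.8 to 53.7 and 18.4 to 51.6, and of the 7 tested, Camp was called as higher (3.02) and 6 did not pass. Camp had 9, 1 and 4 counts in control and 21, 54 and 37 in TgAPPswe libraries. Like Ocstamp, it passed the filter through TgAPPswe libraries only. B and T cell markers summed to 3.78 to 4.41 and 1.02 to 2.48, and of the 2 tested, Cd4 was called as lower (-1.31). Cd209a, Ly6g, Cd79a, Cd3e and Cd3d had under 3 counts in every library. The summed FPKM of the 9 osteoclast genes was between 75.3 and 99.0 in control and between 95.6 and 105 in TgAPPswe libraries. In these bulk samples fewer cells of a type and less RNA per cell cannot be told apart, and the part of shifts in cell types in the osteoclast genes' differences was not tested.

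The RefSeq regions just before the starts of Tnfrsf11a, Acp5 and Ctsk are shown because Tnfrsf11a and Acp5 passed as higher and Ctsk as lower. Nfatc1, Ocstamp and Atp6v0d2 also passed but had no listed region. They are given 5′ to 3′ on the strand of the gene, in build GRCm38.p6, as 200 bases for Tnfrsf11a at chr1:105780473-105780672 (plus strand), 250 for Acp5 at chr9:22130599-22130848 (minus strand, the third of its 3 listed starts, inside the gene as annotated from its outermost start) and 250 for Ctsk at chr3:95498960-95499209 (plus strand). Capitals mark matches to motifs of transcription factors of the osteoclast lineage.
Tnfrsf11a: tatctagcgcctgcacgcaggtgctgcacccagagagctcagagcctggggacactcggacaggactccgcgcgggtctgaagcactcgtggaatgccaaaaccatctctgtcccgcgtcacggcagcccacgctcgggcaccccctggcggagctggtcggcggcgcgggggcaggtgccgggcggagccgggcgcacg
Acp5: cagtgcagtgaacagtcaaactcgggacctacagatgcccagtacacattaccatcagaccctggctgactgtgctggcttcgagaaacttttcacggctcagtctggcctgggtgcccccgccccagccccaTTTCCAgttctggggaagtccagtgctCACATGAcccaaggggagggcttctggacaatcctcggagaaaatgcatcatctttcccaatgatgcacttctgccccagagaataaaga
Ctsk: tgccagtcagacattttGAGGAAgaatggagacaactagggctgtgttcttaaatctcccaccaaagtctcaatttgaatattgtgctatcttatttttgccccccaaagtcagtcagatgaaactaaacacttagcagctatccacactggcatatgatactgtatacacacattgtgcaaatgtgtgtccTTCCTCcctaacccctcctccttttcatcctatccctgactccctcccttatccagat
The letters searched on both strands were TGACTCA for AP-1, TGGAAA for NFAT, GAGGAA for PU.1 and TCATGTG for MITF, none of which overlapped another at the matches found. Acp5 held an NFAT match 117 to 112 bases before its start and a MITF match 90 to 84 bases before it, and the regions of its other 2 starts held no match. Ctsk held PU.1 matches at 233 to 228 and at 58 to 53 bases before its start. Oscar, which was too scarce to be tested and is not shown, held matches as well. They were NFAT matches at 249 to 244 and at 82 to 77 bases and a PU.1 match at 237 to 232 bases before its start. The 2 regions listed for Calcr held no match. The 250 bases searched for Tnfrsf11a, of which the 200 outside its annotated transcripts are shown, held none of the 4 motifs. Among 32851 regions of 250 bases in the table, 4.46% held the AP-1 letters, 18.58% those of NFAT, 23.25% those of PU.1 and 3.25% those of MITF. A match is a run of letters and not a measured site.

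Tnfrsf11a (Entrez 21934, chr1:105780673-105849444) encodes RANK, the receptor for RANKL on osteoclast precursors. Its FPKM was 18.1, 17.2 and 18.05 in control libraries 1 to 3 and 31.6, 43.2 and 40.5 in TgAPPswe libraries 1 to 3. Every TgAPPswe library stood above every control library, and the control libraries lay within a narrow band, with a coefficient of variation of 2.76% against 15.7% in TgAPPswe. Mean FPKM went from 17.8 ± 0.492 to 38.45 ± 6.04 (SD, n = 3), a fold change of 2.48 (95% interval 2.13 to 2.87) in edgeR with an adjusted p of 5.96e-06. The exact two-sided permutation test over the 6 libraries gave p = 0.1, the smallest that 3 against 3 allows, and gave the same p for each of the other 6 genes tested. Ranked by FPKM among all 17469 genes within each library, Tnfrsf11a moved from a mean percentile of 74.9 to 87.3. Its ratio to Csf1r, the M-CSF receptor that the same precursors carry, went from 0.0147 ± 0.000342 to 0.105 ± 0.0245, where Csf1r itself fell from an FPKM of 1214 ± 22.1 to 370.5 ± 30.9.

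Oscar (Entrez 232790, chr7:3609813-3616157), an immunoreceptor that binds collagen and costimulates NFATc1 induction, was close to the limit of detection. Its counts were 0, 3 and 1 in control and 5, 3 and 5 in TgAPPswe libraries. The genotypes overlapped at 3 counts. Per unit of depth, the 13 TgAPPswe counts were 2.91 times the 4 control counts, with an exact 95% interval of 0.899 to 12.3 for counting error, which includes a ratio of 1. The exact permutation p over libraries was 0.2. Of its neighbours, Ndufa3, 1189 bases away, had a log2 fold change of 0.03 (adjusted p = 0.781), and Tarm1, 107058 bases away on the other side, rose from a mean of 3 counts to 182 (log2 fold change 5.93, adjusted p = 3.98e-05).

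Calcr (Entrez 12311, chr6:3685678-3764713) encodes the calcitonin receptor, a marker of mature osteoclasts. It had 0 counts in all control libraries and 1, 0 and 0 in the TgAPPswe libraries. Every library lay under the smallest detectable level of 3 counts, so no fold change is given and a difference was not detectable at this depth.

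Nfatc1 (Entrez 18018, chr18:80606205-80713071) went in the opposite direction to the receptor upstream of it. Its FPKM was 22.8, 24.4 and 23.0 in control and 15.7, 18.0 and 17.9 in TgAPPswe libraries. The genotypes did not overlap, although the gap between the lowest control and the highest TgAPPswe library was under 5 FPKM. edgeR gave a log2 fold change of -0.23 (95% interval -0.37 to -0.08, adjusted p = 0.0121), a change of -14.5%. With library size scaling only it was -0.44, and over all alternatives it lay between -0.44 and -0.18. The Tnfrsf11a to Nfatc1 ratio of FPKM was 0.793, 0.705 and 0.786 in control and 2.01, 2.40 and 2.26 in TgAPPswe libraries. Nfatc1 was thus the more abundant of the pair per length in every control library, and Tnfrsf11a in every TgAPPswe library.

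Dcstamp and Ocstamp encode related multipass membrane proteins that precursors need to fuse with each other. Dcstamp (Entrez 75766, chr15:39745930-39760938) had 11, 17 and 13 counts in control and 7, 6 and 10 in TgAPPswe libraries. The lowest control library and the highest TgAPPswe library were 1 count apart. The log2 fold change was -0.77 (95% interval -1.60 to 0.07, adjusted p = 0.0973), so Dcstamp did not pass. It did pass when counts were scaled by library size only (-0.98, adjusted p = 0.0396) and in limma on log2 FPKM, where the adjusted p was between 0.0251 and 0.0412.

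Ocstamp (Entrez 74614, chr2:165395450-165400394) had 0, 0 and 1 counts in control and 30, 31 and 54 in TgAPPswe libraries. TgAPPswe libraries lay well above the detection limit and control libraries below it. Per unit of depth the ratio was 103 (exact 95% interval 18.1 to 4104 for counting error), with an adjusted p of 5.34e-05 in edgeR. Ocstamp passed the filter for testing through its TgAPPswe libraries only, so this p-value is not support for the rise. The fitted log2 fold change of 6.44 depends on the prior count added to control counts near 0, and without the control library that held 1 count it was 8.29. On the scale of log2(FPKM + 1) the difference was 0.92, which passed but lay under the fold threshold. The level stayed low, at an FPKM of 0.93 ± 0.338 in TgAPPswe libraries. Slc13a3, a dicarboxylate transporter gene picked once its values had been seen, lies on the same strand 4900 bases upstream of Ocstamp, at chr2:165405295-165473197. Its mean count went from 944 to 144429, and its 3 TgAPPswe libraries held between 143700 and 145265 counts. Per 1000 counts of Slc13a3, Ocstamp had 0, 0 and 1.05 counts in control and 0.209, 0.215 and 0.372 in TgAPPswe libraries, so that the control library with 1 Ocstamp count lay above every TgAPPswe library on this ratio. On the other side Zfp334, 7134 bases away, was higher as well (log2 fold change 1.33, adjusted p = 0.00216). The part of the neighbouring genes in the Ocstamp difference was not tested.

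Atp6v0d2 (Entrez 242341, chr4:19876838-19922566) encodes the d2 subunit of the membrane sector of the V-type proton pump, which is enriched in osteoclasts and is also needed for precursor fusion. Its FPKM was 23.3, 43.6 and 37.8 in control and 5.05, 5.83 and 5.23 in TgAPPswe libraries. Control library 1 was the lowest of its genotype, yet it stood far above the highest TgAPPswe library. Mean FPKM went from 34.9 ± 10.5 to 5.37 ± 0.408, with a log2 fold change of -2.38 (95% interval -2.85 to -1.92, adjusted p = 1.64e-05). It had the rank of 100 among the largest falls of the 12701 genes tested. Atp6v0d2 was the most abundant of the 9 genes by mean FPKM in control cells and the fourth most abundant in TgAPPswe cells. The widely expressed subunit of the same position, Atp6v0d1, rose from an FPKM of 116 ± 1.56 to 162 ± 7.68 (log2 fold change 0.70, adjusted p = 1.82e-05). The ratio of the d2 to the d1 gene was 0.199, 0.375 and 0.331 in control and 0.0297, 0.0363 and 0.0339 in TgAPPswe libraries.

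**Figure D2:**
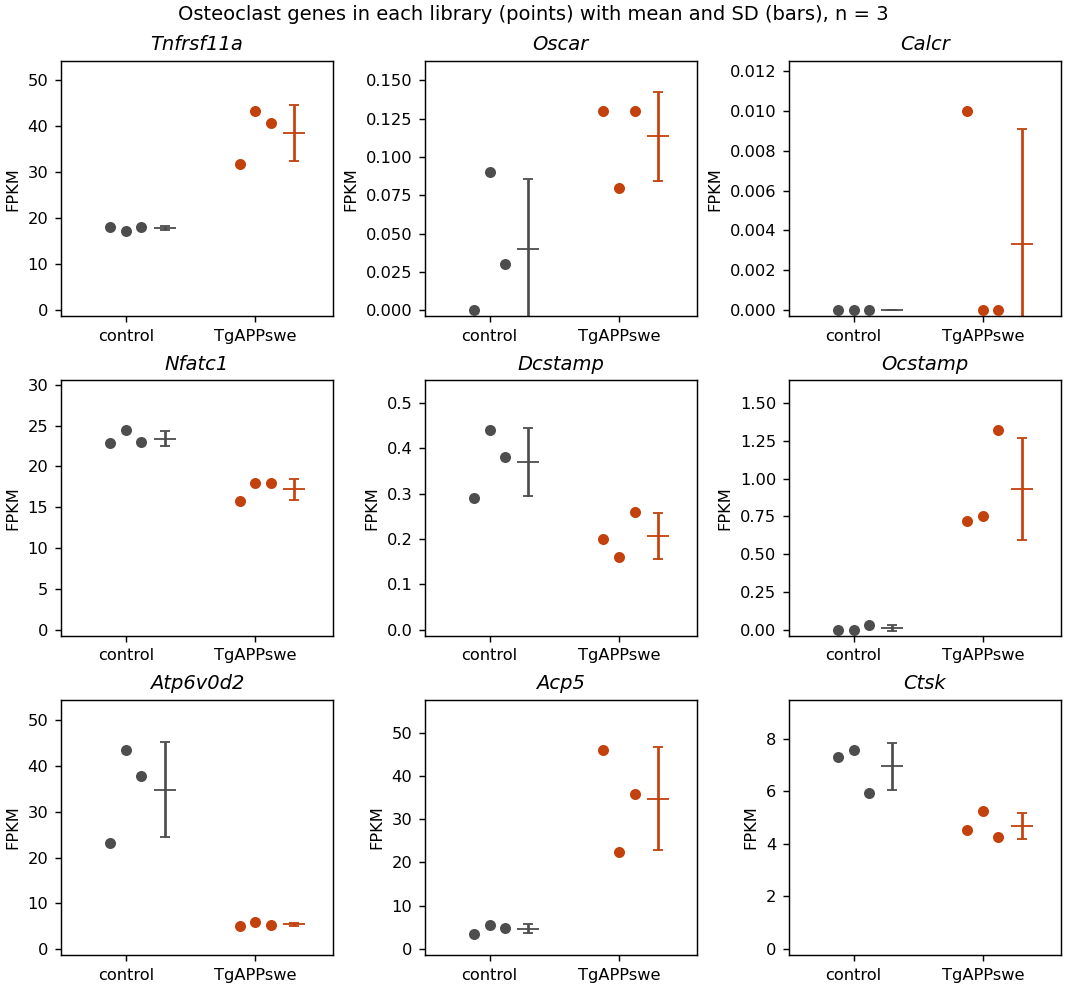
FPKM (y axis, a separate scale for each gene) of the 9 osteoclast genes in each of 3 control and 3 TgAPPswe libraries, drawn as points in the order of their numbers, with bars for the mean and SD (parts below 0 not drawn). Tnfrsf11a, Acp5 and Ocstamp are higher in every TgAPPswe library, Nfatc1, Dcstamp, Atp6v0d2 and Ctsk are lower in every one, and Oscar and Calcr overlap between the genotypes.

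Acp5 (Entrez 11433, chr9:22126727-22135746) encodes tartrate-resistant acid phosphatase (TRAP), the enzyme whose stain identifies osteoclasts, which some macrophages and dendritic cells express as well. Its FPKM was 3.49, 5.62 and 4.93 in control and 46.1, 22.3 and 35.7 in TgAPPswe libraries. The genotypes were well apart, although TgAPPswe libraries 1 and 2 differed from each other by more than the whole control level. Mean FPKM went from 4.68 ± 1.09 to 34.7 ± 11.9, a fold change of 8.70 in edgeR (95% interval 5.47 to 13.8, adjusted p = 2.73e-05). Acp5 moved from a mean percentile of 51.0 to 85.3 of all genes by FPKM within each library, while Atp6v0d2 went from 85.3 to 55.8.

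Ctsk (Entrez 13038, chr3:95499210-95509387) encodes cathepsin K, the collagen-degrading protease of osteoclasts. Its FPKM was 7.31, 7.58 and 5.94 in control and 4.52, 5.23 and 4.27 in TgAPPswe libraries. The genotypes did not overlap, and the gap between them was smaller than 1 FPKM. The log2 fold change was -0.36 (95% interval -0.66 to -0.06, adjusted p = 0.0372), a change of -22.1%, and with library size scaling only the log2 fold change was -0.58. Ctsk did not pass in DESeq2 (adjusted p = 0.0707), and without control library 1 (0.0877), control library 2 (0.119), TgAPPswe library 1 (0.0763) or TgAPPswe library 3 (0.138). Of its neighbours, Arnt, 1969 bases away, had a log2 fold change of 0.19 (adjusted p = 0.0123), and Ctss, which encodes the lysosomal protease cathepsin S and lies 17398 bases away on the other side, had one of -0.41 (adjusted p = 0.000519).

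Since library scaling cancels within a library, ratios between genes were also compared. The Acp5 to Atp6v0d2 ratio of FPKM was 0.15, 0.129 and 0.131 in control and 9.12, 3.83 and 6.83 in TgAPPswe libraries. The Acp5 to Ctsk ratio was 0.477, 0.741 and 0.83 in control and 10.2, 4.27 and 8.37 in TgAPPswe libraries. Both ratios lay below 1 in every control library and above 1 in every TgAPPswe library. Each of these ratios, and those of Tnfrsf11a to Nfatc1, Tnfrsf11a to Csf1r and Atp6v0d2 to Atp6v0d1, had an exact two-sided permutation p of 0.1, the smallest the design allows.

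**Figure D3:**
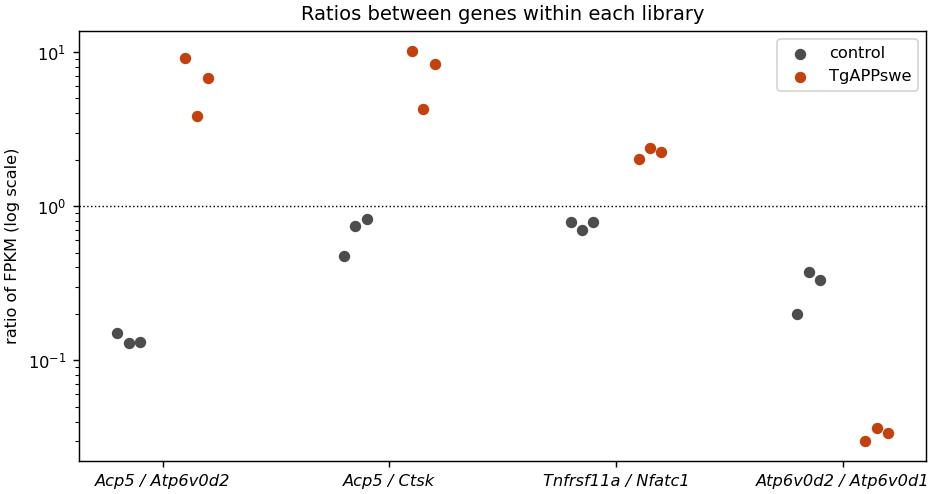
Ratio of the FPKM of the named gene pair within each library (y axis, log scale), with points for 3 control and 3 TgAPPswe libraries in the order of their numbers and a dotted line at 1. Acp5 is above Atp6v0d2 and Ctsk, and Tnfrsf11a above Nfatc1, only in the TgAPPswe libraries, while Atp6v0d2 stays below Atp6v0d1 in all 6.

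The order of the 9 genes by mean FPKM changed between the genotypes. In control cells it ran from Atp6v0d2 (34.9) and Nfatc1 (23.4) through Tnfrsf11a (17.8), Ctsk (6.94) and Acp5 (4.68) to Dcstamp (0.37), Oscar (0.04), Ocstamp (0.01) and Calcr (0). The libraries of Atp6v0d2 and Nfatc1 overlapped, as did those of Oscar and Ocstamp and those of Ocstamp and Calcr. In TgAPPswe cells it ran from Tnfrsf11a (38.45) and Acp5 (34.7), which overlapped, to Nfatc1 (17.2), then Atp6v0d2 (5.37) and Ctsk (4.67), which overlapped, and then Ocstamp (0.93), Dcstamp (0.207), Oscar (0.113) and Calcr. By CPM, 3 of the 7 genes tested were higher in every TgAPPswe library and 4 were lower in every one, so that none of the 7 overlapped. Of all genes tested, 69.7% did not overlap, 34.8% higher and 34.9% lower in TgAPPswe.

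The wider pathway was described with 7 lists of 78 genes, which hold none of the 9. Of the 76 tested, 33 passed as higher and 23 as lower, where 32.5% of all genes tested passed as higher and 31.5% as lower, shares against which each list's counts are to be read. Their median log2 fold change was 0.05 against -0.02 over all genes tested. With library size scaling only, 21 passed as higher and 33 as lower, so that the balance turned. Calls over all genes tested turned likewise, from 1130 higher and 1169 lower to 846 higher and 1732 lower. The turn is therefore not particular to these lists. The shares of all genes that passed under that scaling were not taken. Under that scaling 5 rather than 9 were called as higher, with Nfkb2, Fcer1g, Prdm1 and Rbpj lost, and 13 rather than 9 as lower, with Tec (-1.21), Fosl2 (-1.04), Jun (-1.19) and Sh3pxd2a (-1.08) gained. These 4 were named after the fact.

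Among the extracellular signals and their receptors, Tnfsf11, which encodes RANKL, had 1, 0 and 3 counts in control and 4, 3 and 4 in TgAPPswe libraries and was not tested. The ratio per depth was 2.46 (exact 95% interval 0.73 to 10.6). Tnfrsf11b, which encodes the decoy osteoprotegerin, had 177, 75 and 124 counts in control and 40, 116 and 81 in TgAPPswe libraries. The genotypes overlapped, and its log2 fold change of -0.62 did not pass (adjusted p = 0.205). Csf1, which encodes M-CSF, had a log2 fold change of -0.35 (adjusted p = 0.0597), and Il34, the other ligand of Csf1r, one of 0.18 (adjusted p = 0.596). Csf1r itself was called as lower (-1.49, adjusted p = 1.21e-06) and was the 1 gene of the 4 tested in this list that passed. Their median log2 fold change was -0.48. With library size scaling only, Csf1 also passed as lower (-0.56, adjusted p = 0.00957), so that 2 of the 4 did, and the median was -0.69.

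Of 15 genes of RANK signalling, 5 passed as higher, 4 passed as lower and 6 did not pass, with a median log2 fold change of 0.03. Nfkb2, the precursor of p52 in the alternative NF-kB pathway, was the 1 gene called, rising from an FPKM of 34.8 ± 1.07 to 60.6 ± 8.22 (log2 fold change 1.02). With library size scaling only, 2 of the 15 passed as higher and 7 as lower, with a median of -0.18, and Nfkb2 (0.80) lay under the fold threshold. All 11 genes of ITAM costimulation, the calcium-raising arm that works beside RANK, passed, 7 as higher and 4 as lower, with a median of 0.32. The kinase Syk (1.53), the adaptor Fcer1g (1.11) and the receptor Sirpb1a (2.55) were called as higher, while the mean FPKM of the receptor Trem2 dropped from 783 ± 33.3 to 103 ± 15.7 (-2.71, adjusted p = 1.83e-07). With library size scaling only, 5 of the 11 passed as higher and 4 as lower, the median was 0.10, and Fcer1g (0.90) lay under the fold threshold.

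Of 11 osteoclast transcription factors, 2 passed as higher and 5 as lower, with a median log2 fold change of -0.20. The AP-1 subunit Fos, at a mean FPKM of 386 ± 68.4 in control and 109 ± 13.6 in TgAPPswe cells, was called as lower (-1.60, adjusted p = 2.18e-05), and the MITF relative Tfec was also called as lower (-1.21). Prdm1, which encodes Blimp1, a repressor of anti-osteoclast factors, was called as higher (1.18), but lay under the fold threshold with library size scaling only (0.97), where 2 of the 11 passed as higher and 6 as lower and the median was -0.41. Of 8 repressors of osteoclast formation, 4 passed as lower and 2 as higher, with a median of -0.43. Id3 (-2.07) and Id1 (-1.61) were called as lower, and Irf8 passed as lower (-0.47, adjusted p = 0.000255). Id3 went from an FPKM of 288 ± 41.1 to 58.8 ± 3.75. Rbpj, the Notch-pathway transcription factor that restrains osteoclast formation, was called as higher (1.001, adjusted p = 2.63e-05), under a log2 fold change of 1 with library size scaling only (0.78). Cyld passed as higher at 0.20 but had a log2 fold change of -0.02 with library size scaling only. Bcl6 (-0.09, 95% interval -0.28 to 0.10) and Id2 (-0.40, adjusted p = 0.0522) did not pass. Both passed as lower with library size scaling only (Bcl6 -0.31, adjusted p = 0.00924, and Id2 -0.61, adjusted p = 0.00782), and the list had 1 higher and 6 lower, with a median of -0.65. Fractional counts, which estimation gives to reads shared between similar genes, make the values of some named genes less certain. These are Sirpb1a, Id3, Rbpj, Cyld, Xcr1, Itgax and Bglap, and 1 control library of Mmp14 also held one.

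Of 10 genes of fusion and podosomes, the adhesion structures by which osteoclasts seal to bone, 4 passed as higher and 3 as lower, with a median log2 fold change of 0.14. Mean FPKM of the tetraspanin Cd9 dropped from 235 ± 44.7 to 41.6 ± 4.32 (-2.28), and Itgb3, the beta 3 chain of the vitronectin receptor of osteoclasts, fell from 1.46 ± 0.0346 to 0.423 ± 0.106 (-1.58, adjusted p = 9.11e-05). Cd47, a membrane protein that takes part in fusion, was called as higher (1.28, adjusted p = 6e-07). Scaled by library size only, 3 of the 10 passed as higher and 5 as lower, and the median turned to -0.07.

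Of 18 genes of acid secretion and matrix resorption, 17 were tested, 13 passed as higher, 2 as lower and 2 did not pass, with a median log2 fold change of 0.36. Scaled by library size only, 8 passed as higher and 3 as lower, and the median was 0.14. The gelatinase gene Mmp9 had an FPKM of 2.74, 1.31 and 1.6 in control and 169, 69.3 and 124 in TgAPPswe libraries, a log2 fold change of 6.23 (adjusted p = 3.91e-06). As for Acp5, TgAPPswe library 1 was the highest and library 2 the lowest. Mmp14, a membrane-bound collagenase, rose from 55.2 ± 2.05 to 128 ± 10.3 (1.43, adjusted p = 1.48e-06). Tcirg1, which encodes the osteoclast a3 subunit of the proton pump and was added after its values were seen, went from 253 ± 4.65 to 150.1 ± 3.21 (-0.53, adjusted p = 3.41e-05), the same direction as Atp6v0d2. Car2, which encodes the carbonic anhydrase that supplies protons and was added likewise, had 8 counts over the control and 32 over the TgAPPswe libraries and was not tested.

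**Figure D4:**
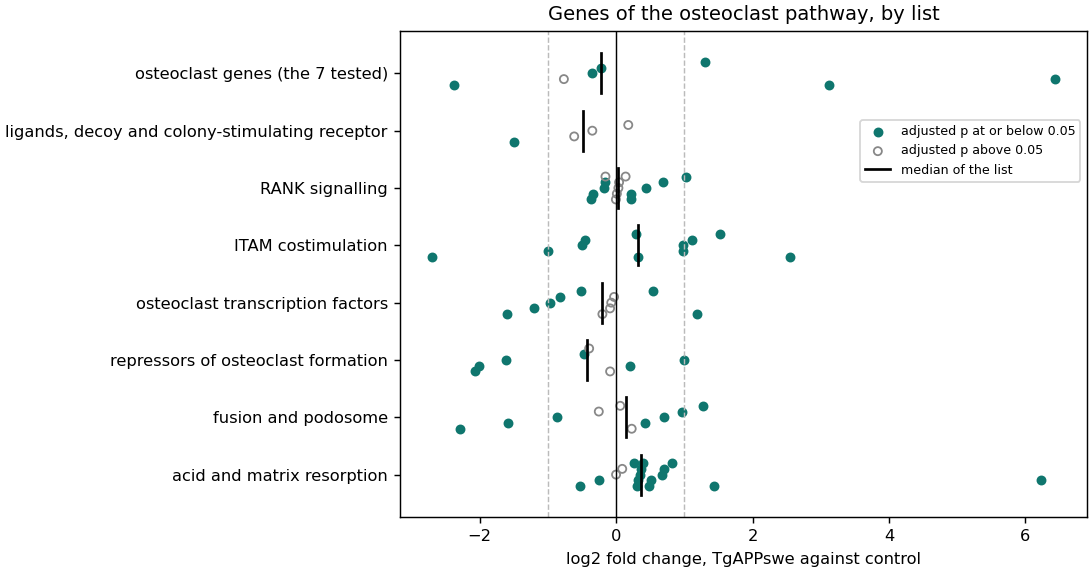
Log2 fold change of TgAPPswe against control (x axis) for each tested gene of the osteoclast genes and of the 7 pathway lists (rows), with filled points for an adjusted p at or below 0.05, open points for others, and black bars for the median. The list medians lie between -0.48 and 0.36, and single genes reach from -2.71 for Trem2 to 6.44 for Ocstamp.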

How the data were processed

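RNA-seq was compared between 3 control and 3 TgAPPswe libraries. Libraries were sequenced on a DNBSEQ platform, and rRNA, low-quality and adaptor reads were removed. The submitters' processing notes name HISAT2 2.0.4, Bowtie2 2.2.5, RSEM 1.2.12, DESeq2 1.4.5 and mm10. The authors deposited estimated counts, fractional for 13.3% to 14.4% of genes, and FPKM for 17469 genes. A further table of the authors' log ratios and p-values was not used.

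After rounding, the estimated counts were tested with the quasi-likelihood method of edgeR 4.0.16 (R 4.3.3), with its default filter, TMM scaling and genotype as the only term. The procedure was also run on simulated counts in which 200 genes were changed, as many up as down. In these data 64.0% of all genes tested passed, so that run does not bear on the choice of scaling. Coordinates, neighbouring genes and upstream sequences came from RefSeq, GRCm38.p6, which listed upstream regions for 5 of the 9 genes. Alternatives were DESeq2 1.42.0, RLE factors, library size only, 2 other filters, a replicate block, limma 3.58.1 on log2 FPKM (1 or 0.1 added), and leaving out each library in turn.

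The 9 genes and all lists were chosen with earlier results of these data known. Named are the 9 genes, App, the genes of the ligand and repressor lists, called genes of other lists (at most 4 each), marker genes under 3 counts throughout, and neighbours of the 9. Atp6v0d1, Bglap, Itgax, Tec, Fosl2, Jun, Sh3pxd2a, Tcirg1, Car2, Slc13a3 and the other neighbours lie outside the planned rule and were picked once their values had been seen. Some genes that the rule takes in are not reported here.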

Additional observations from a re-analysis of the deposited data

How the results depend on the processing

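Over 15 alternatives no osteoclast gene changed direction, and Tnfrsf11a, Nfatc1, Acp5, Ocstamp and Atp6v0d2 passed under every alternative in which they were tested. Ocstamp and Dcstamp could not be tested with a minimum of 10 counts in every library. The number of the 9 genes called as higher was 2 or 3, and 1 was called as lower throughout. Ctsk was -0.35 in DESeq2 (adjusted p = 0.0707). Leaving out 1 library moved it between -0.46 and -0.29 (adjusted p 0.0215 to 0.138), with 2 of 6 such fits passing. Dcstamp passed with library size only (-0.98), in limma on log2(FPKM + 1) with and without the filter (-0.18 in both) and on log2(FPKM + 0.1) (-0.62), on which scales low genes are compressed. Without 1 library it lay between -0.9998 and -0.59. The 33 pathway genes that passed as higher were 21 with library size only, 21 in limma on log2(FPKM + 1), 21 on log2(FPKM + 0.1) and 20 on log2(FPKM + 1) without a filter, and between 29 and 33 without 1 library. The 23 that passed as lower were 33 with library size only and between 22 and 34 over all alternatives. The cause of these changes was not tested.

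Libraries share replicate numbers, but the deviations of libraries with the same number correlated at 0.029, -0.015 and 0.193 over 11942 genes, and control library 2 correlated best with TgAPPswe library 1, so the numbers were not taken as pairs. With a replicate block the log2 fold changes were 1.30 for Tnfrsf11a, -0.23 for Nfatc1, 3.06 for Acp5, -0.36 for Ctsk, -0.77 for Dcstamp, 6.45 for Ocstamp and -2.35 for Atp6v0d2, and none of them moved across the threshold of the test. Depth limits Oscar and Calcr, whose counts were 0 to 5 per library.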
